A study of Homo sapiens with 4 samples.

Results

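RNase MRP and RNase P are ribonucleoprotein enzymes, each built from a catalytic RNA and a set of proteins that both largely share. This account covers their RNA components RMRP and RPPH1, 6 of their protein subunits (POP1, POP4, POP5, POP7, RPP30 and RPP40) and the 7S RNAs RN7SK and RN7SL1, which were chosen by gene symbol. Of these 10 genes, 8 were among the 23228 genes with a row in the count tables. RN7SK and RN7SL1 had no row under these symbols and were not analysed here. The group was drawn up because RMRP was higher after treatment on few reads, so the difference between treatments chose it. The values of its genes in that comparison are therefore given as a description, with no test.

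RNase P cuts the 5′ leader from precursor tRNAs, and RNase MRP cuts the precursor of the ribosomal RNAs. RMRP and RPPH1 are transcribed by RNA polymerase III from promoters that lie upstream of the gene, and mutations of RMRP cause the skeletal dysplasia cartilage-hair hypoplasia. RN7SK holds the elongation factor P-TEFb in an inactive particle, and RN7SL1 is the scaffold of the signal recognition particle, which brings secretory proteins to the endoplasmic reticulum.

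OCSCs were ALDH+ cells sorted from SKOV3, an established human ovarian cancer line, and grown as spheroids. They received vehicle (n = 2) or 5 µM LY500307, an agonist of ERβ (n = 2), for 24 h. Gene totals were between 28841701 and 34943882 reads per sample, and 32.3% to 33.4% of all tallied reads mapped to several places and were not assigned to genes. The labels describe a kit for total RNA and the study's methods a stranded kit for mRNA. Which was used was not settled, and it bears on RNAs without a poly(A) tail, such as RMRP and RPPH1. Nothing says that the samples of a group were separate cultures, so errors and p-values measure the spread between these samples only.

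The markers of the labelled cells were present in part. EPCAM had 6213 to 8327 reads per sample, KRT18 668 to 1030, ERBB2 1452 to 2060 and ALDH1A1 134 to 185, whereas ALDH1A3 had 8 to 16, KRT8 9 to 33 and PAX8 0 in every sample, KRT19 at most 2, CDH1 at most 4 and MUC16 at most 6. Of markers of other cells, the macrophage gene CD68 had 372 to 620 reads, while PTPRC, CD3E, PECAM1 and VWF, of leukocytes and endothelium, had at most 11. COL1A2, a collagen gene typical of fibroblasts, had 7291 to 12767 reads. The 8 markers of other cell types, most of their reads from COL1A1 and COL1A2, summed to 452 and 464 unscaled CPM (reads per 1000000 gene counts) with vehicle and to 543 and 667 unscaled CPM with LY500307, and their part in the results was not tested. The LY500307 pair differed with a chi-square of 36.5 per degree of freedom and the vehicle pair with one of 4.79. LY500307 replicate 2 stood apart: its root mean square difference in log2(CPM + 1) over all genes tested was 0.301 to 0.367 from each other sample, whereas these differed among themselves by 0.205 to 0.229. ESR2, the gene of ERβ, had 7 to 12 reads in each sample. Log2 fold changes without this sample are therefore given beside the main results.

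RMRP lies on chromosome 9 of GRCh37 (the sequence behind hg19), from 35657751 to 35658014 on the minus strand. It is a single exon of 264 bases annotated as a ribozyme. Its sequence is shown because a read can be counted on RMRP only if it maps to this stretch alone. All 215 windows of 50 bases, the read length, occurred once in the genome as exact matches. The first line below is the RNA with its bases written as DNA. The second is the stretch of 250 bases upstream (chr9:35658015-35658264, minus strand), where the capitals mark the motifs found.

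RMRP RNA: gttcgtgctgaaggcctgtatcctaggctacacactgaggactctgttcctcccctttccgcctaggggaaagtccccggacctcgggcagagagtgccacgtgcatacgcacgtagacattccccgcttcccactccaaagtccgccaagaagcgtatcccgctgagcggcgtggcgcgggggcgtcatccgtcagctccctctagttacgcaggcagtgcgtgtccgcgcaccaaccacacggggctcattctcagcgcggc

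RMRP promoter: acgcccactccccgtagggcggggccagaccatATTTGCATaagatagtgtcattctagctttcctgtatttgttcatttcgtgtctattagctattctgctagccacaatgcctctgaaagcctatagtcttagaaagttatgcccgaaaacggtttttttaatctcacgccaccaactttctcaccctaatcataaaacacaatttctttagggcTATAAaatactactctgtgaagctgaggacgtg

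The motifs were searched on both strands from 250 bases before to 50 bases after the annotated start. The letters TATAA began 33 bases upstream of the RMRP start, and 31% of 64382 windows of the same kind around annotated genes held them. The octamer ATGCAAAT, bound by POU factors such as POU2F1, was found on the other strand, beginning 217 bases upstream, and 2.25% of the windows held it. Neither the palindromic consensus of the estrogen response element (0.0482% of the windows) nor AGGTCA, one arm of it (16.4%), was found in this window.

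RMRP had 12 reads in vehicle replicate 1 and 2 reads in vehicle replicate 2, against 62 reads in LY500307 replicate 1 and 89 in LY500307 replicate 2. Both LY500307 samples were thus above both vehicle samples, and vehicle replicate 2 was close to no reads. In unscaled CPM, vehicle replicate 1 was at 0.395, with a Wilson 95% interval of 0.226 to 0.691, and vehicle replicate 2 at 0.0693 (0.0190 to 0.253). LY500307 replicate 1 was at 1.77 (1.38 to 2.27) and the other treated sample at 2.85 (2.31 to 3.50). All intervals here cover counting error only.

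In edgeR the log2 fold change of RMRP was fitted as 3.23, with a standard error of 0.62. The vehicle samples averaged 0.235 ± 0.233 CPM (SD, n = 2) and the LY500307 samples 2.27 ± 0.684 CPM (SD, n = 2). CPM without a qualifier is scaled by TMM, which corrects the gene totals for differences in composition. From the pooled reads, 151 with LY500307 and 14 with vehicle, RMRP was 9.64-fold higher per gene count (exact 95% interval 5.57 to 18.1). The size of the difference depended on the vehicle samples. Against vehicle replicate 1 alone the ratio of pooled reads was 5.77 (3.21 to 11.4). Against vehicle replicate 2 alone, on 2 reads, it was 32.9 (8.95 to 274). The intervals of these ratios cover counting error only, not the spread between samples, and are no test, since the comparison chose RMRP. The fitted log2 fold change was 4.93 without vehicle replicate 1 and 2.49 without vehicle replicate 2, so that vehicle replicate 1 moved it most. It was 2.89 without LY500307 replicate 2, the sample that stood apart, and 3.51 without LY500307 replicate 1.

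RPPH1, the RNA of RNase P, had 11 and 15 reads in the vehicle samples, 17 reads in LY500307 replicate 1 and 49 in LY500307 replicate 2. LY500307 replicate 2 alone was high, and after scaling LY500307 replicate 1 lay between the vehicle samples. Its fitted log2 fold change was 1.15 (standard error 0.65). Without LY500307 replicate 2 it came to 0.13, and without the other treated sample to 1.76. The ratio of LY500307 replicate 1 to the pooled vehicle samples was 1.11 (exact 95% interval 0.564 to 2.12), and that of LY500307 replicate 2 was 3.57 (2.18 to 5.98). These intervals too leave out the spread between samples and are no test. No position in GRCh37 is given here for RPPH1.

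**Figure D1:**
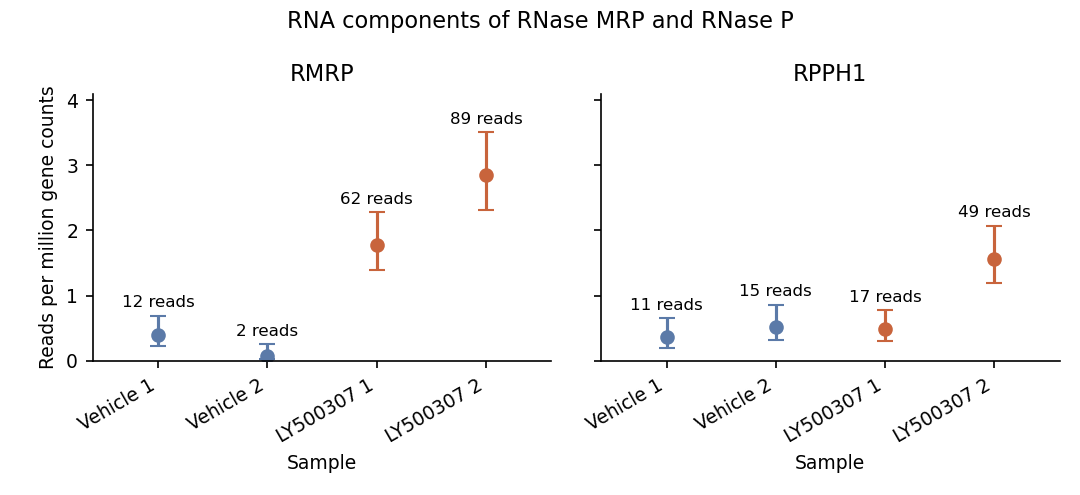
Unscaled CPM of RMRP and RPPH1 in each of the 4 samples, with Wilson 95% intervals as bars and the number of reads above each point. RMRP was at 1.77 and 2.85 in the LY500307 samples and below 0.4 in the vehicle samples, while RPPH1 was high in LY500307 replicate 2 alone.

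Per kilobase of exon, RMRP was at 0.892 CPM with vehicle and 8.60 CPM with LY500307, and RPPH1 at 1.31 CPM and 2.94 CPM over its RefSeq length of 341 bases. On the same scale, the protein genes lay between 4.70 CPM (POP4) and 34.4 CPM (POP7) with vehicle. RMRP was thus below all 6 protein genes with vehicle, and with LY500307 above POP1 (7.28 CPM), POP4 (5.08), RPP30 (6.21) and RPP40 (7.27). Exonic lengths include every annotated isoform, so these levels are approximate. RMRP and RPPH1 have no poly(A) tail, and which kit was used was not settled. The order therefore compares reads in these libraries and not amounts of RNA in the cells.

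The remaining transcripts of RNA polymerase III were nearly unread: of 8 rows, 6 had 0 reads in every sample, VTRNA1-3 (a vault RNA) had 16, 4, 2 and 3 reads in vehicle replicates 1 and 2 and LY500307 replicates 1 and 2, and VTRNA1-1 had 4 reads in LY500307 replicate 1 alone. The 395 rows of small nuclear, small nucleolar and Cajal body RNAs, of which 137 had 0 reads throughout, summed to 154 and 145 unscaled CPM with vehicle and 115 and 152 with LY500307. Their summed level thus overlapped between the groups. Of the 115 that passed the expression filter, 1 was higher and 10 were lower by the study's criteria, which ask for an unadjusted p below 0.05 together with a log2 fold change beyond 0.5 in either direction, and the median log2 fold change was -0.27. Leaving out LY500307 replicate 1 gave a median of 0.00 and leaving out replicate 2 gave -0.49. Leaving out vehicle replicate 1 gave -0.12 and leaving out vehicle replicate 2 gave -0.22. The filter was applied anew in each of these fits, so the medians cover 132 to 147 RNAs. The median thus depended on the fit, and the part of the samples was not separated from that of the filter. Among all 14473 genes tested, 2.76% were higher and 1.86% lower by these criteria, with a median of -5.6e-05. DESeq2 gave 3 higher and 3 lower among 258 of the small RNAs. Of all 18407 genes that DESeq2 tested, 566 met the criteria, 364 of them higher. The 72 replication-dependent histone genes, whose mRNAs typically lack a poly(A) tail too, summed to 284 and 297 unscaled CPM with vehicle. With LY500307 they summed to 300.2 and 358. HIST1H2BK alone had 3225 of their 8631 reads in vehicle replicate 1, and 4273 of 11191 in LY500307 replicate 2. The part of the histone genes in the RMRP difference was not tested.

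CCDC107, which starts 272 bases from RMRP and is read in the opposite direction, had 361 and 334 reads with vehicle and 532 and 321 with LY500307. The groups overlapped (log2 fold change 0.09, standard error 0.22, adjusted p = 0.877 in edgeR's quasi-likelihood test). The sign turned with the treated sample left out: leaving out replicate 2 gave 0.37 and leaving out replicate 1 gave -0.26. PARP2, which neighbours RPPH1 in the RefSeq annotation of GRCh38.p14, had 1725 and 1737 reads with vehicle and 2099 and 1632 with LY500307 (log2 fold change -0.10, standard error 0.12, adjusted p = 0.744 in the same test). The groups overlapped there too, and the value without LY500307 replicate 2 was 0.03.

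The genes whose centred log2 CPM came nearest to that of RMRP over the 4 samples were all read rarely. PRLR, the prolactin receptor, was nearest, with a root mean square difference of 0.603 on the log2 scale. It had 3 and 0 reads with vehicle and 14 and 12 with LY500307. IL23A (difference 0.718), SNORD116-22 (0.739), USH1C (0.767) and PLXNA2 (0.857) followed. Each had at most 24 reads in any sample. SNORD116-22 belongs to a cluster of near-identical copies, so that its counts are uncertain. PRLR, IL23A, SNORD116-22 and USH1C had no vehicle sample above the filter minimum of 0.325 unscaled CPM and passed only through the LY500307 samples. The ranking used the same values that chose RMRP, so nothing is read from the likeness.

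The 6 protein subunits were read far more deeply, with 342 to 1260 reads per gene and sample. POP5, a core subunit that lies on chromosome 12, had 23.7 and 25.1 CPM with vehicle and 28.1 and 33.4 CPM with LY500307. Both LY500307 samples were above both vehicle samples, and its log2 fold change of 0.34 (standard error 0.14) was the largest of the 6 in edgeR with all samples. It was 0.21 without LY500307 replicate 2. RPP40 had 11.4 and 12.03 CPM with vehicle and 15.2 and 13.5 CPM with LY500307, again without overlap, and a log2 fold change of 0.29 (standard error 0.16), or 0.38 when LY500307 replicate 2 was left out. RPP40 was highest in LY500307 replicate 1 and POP5 in LY500307 replicate 2, so that the treated samples did not order these subunits alike.

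POP7, which pairs with RPP25 on the RNA, had 31.9 and 30.8 CPM with vehicle and 36.3 and 32.9 CPM with LY500307 (log2 fold change 0.14, standard error 0.12). POP4, which binds the catalytic RNA, had 20.02 and 20.5 CPM with vehicle and 21.5 and 22.2 CPM with LY500307 (log2 fold change 0.11, standard error 0.13). Without LY500307 replicate 2 these values were 0.21 (POP7) and 0.09 (POP4). For both genes the groups did not overlap, but the difference was about as large as its standard error. POP1, the largest subunit, had 33.6 and 30.6 CPM with vehicle and 33.5 and 37.2 CPM with LY500307, and its groups overlapped (log2 fold change 0.14, standard error 0.13, and 0.06 without LY500307 replicate 2). RPP30 had 25.5 and 27.7 CPM with vehicle and 29.2 and 25.7 CPM with LY500307. Its log2 fold change of 0.04 (standard error 0.13) became -0.02 without vehicle replicate 1 and -0.05 without LY500307 replicate 1, so that it had no settled sign.

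**Figure D2:**
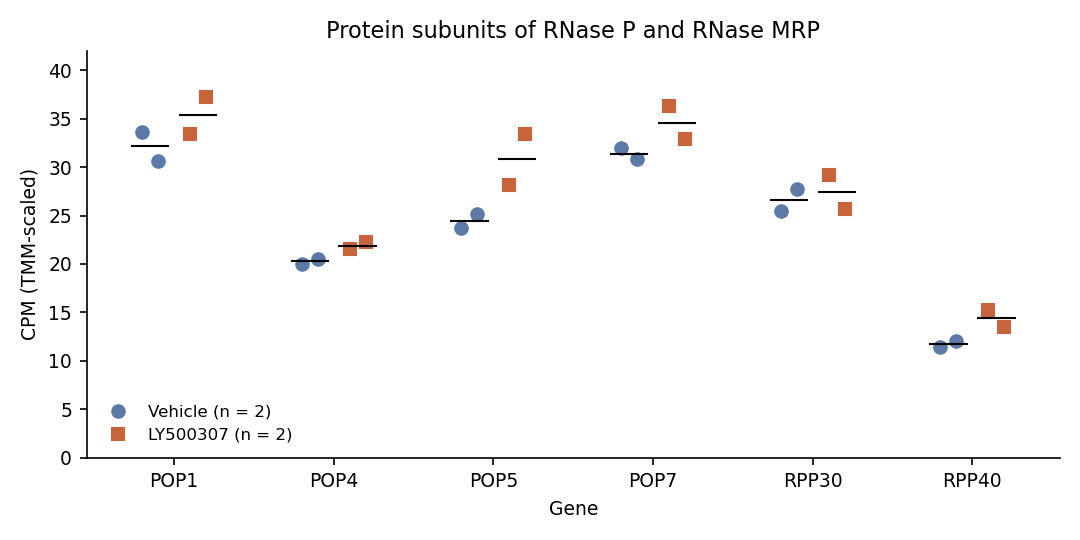
TMM-scaled CPM of the 6 protein genes in each sample, circles for vehicle and squares for LY500307, with the group mean of 2 samples as a line. The groups lie close together for every gene, and POP5 has the widest gap, from a mean of 24.4 to a mean of 30.8 CPM.

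All 8 genes described passed the expression filter, RMRP with 1 vehicle sample and both LY500307 samples above its minimum of 0.325 unscaled CPM. Each of the 8 had a positive fitted log2 fold change, with a median of 0.22, where 50% of all genes tested did. RMRP and RPPH1 had a log2 fold change above 0.5, as did 6.32% of all genes tested. RMRP, POP4, POP5, POP7 and RPP40 were higher in both LY500307 samples than in both vehicle samples, as were 24.2% of all genes tested. Since the comparison chose the group, nothing is read from these counts. Over all genes, 0% had an adjusted p below 0.05 in edgeR (0 of 14473, with 1678 at an unadjusted p below 0.05), and DESeq2 gave 16 genes.

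**Figure D3:**
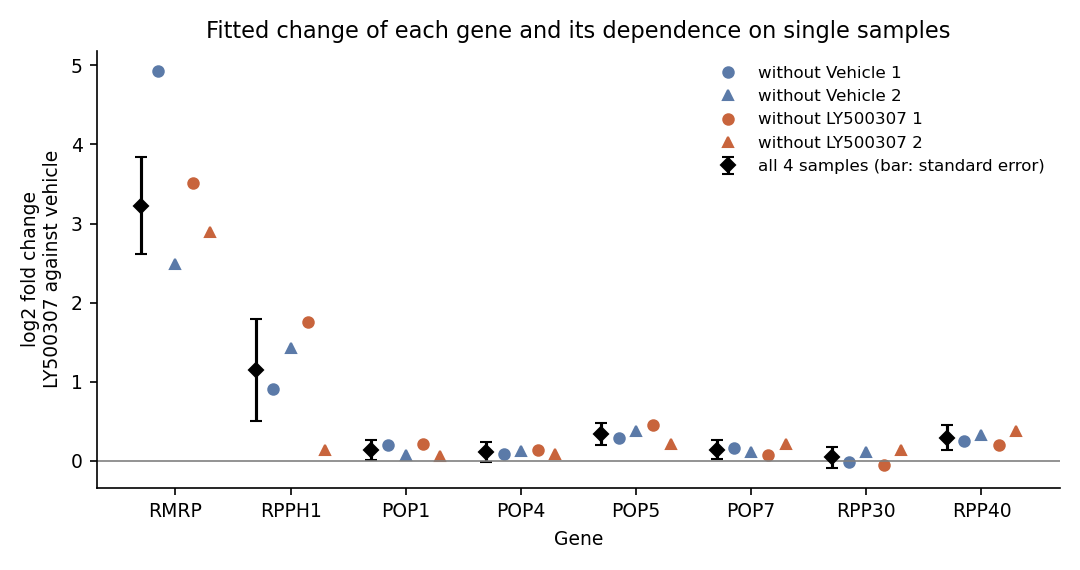
Fitted log2 fold change of LY500307 against vehicle in edgeR for each of the 8 genes, with all 4 samples (diamond, bar for the standard error) and with each sample left out. RMRP stays between 2.49 and 4.93, RPPH1 drops to 0.13 without LY500307 replicate 2, and the protein genes stay between -0.05 and 0.46.

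The remaining proteins of both enzymes were listed by function and tested. Of 5 genes listed, 4 passed the filter. RPP25L, a paralogue of the subunit RPP25 that is listed as C9orf23, was the gene among them that met the study's criteria. Of all genes tested, 4.62% met them. RPP25L had 384 and 301 reads with vehicle and 555 and 731 reads with LY500307. Its level was 11.7 ± 1.57 CPM (SD, n = 2) with vehicle and 19.3 ± 4.68 CPM (SD, n = 2) with LY500307. Both LY500307 samples were above both vehicle samples, as for 24.2% of all genes tested. The log2 fold change was 0.72 with a standard error of 0.20 and an adjusted p of 0.422 in edgeR's quasi-likelihood test. It was 0.45 without LY500307 replicate 2 and then no longer met the criteria. RPP25L lies on chromosome 9 of GRCh37 from 34610483 to 34612101, which is 1045649 bases from RMRP. RPP25 (log2 fold change 0.23), RPP38 (0.24) and RPP14 (0.15), the most highly counted of the 4, did not pass the test. RPP21 had 3 reads in LY500307 replicate 2 and 0 in the other samples, and was not tested. The median of the 4 was 0.23.

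Beyond the enzymes themselves, 1 of 12 genes of mitochondrial RNase P and tRNA end processing met the study's criteria, against 4.62% of all genes tested. It was CLP1, an RNA kinase of tRNA splicing and mRNA 3′ end formation, with 22.1 ± 1.87 CPM (SD, n = 2) with vehicle and 27.1 and 37.4 CPM in the LY500307 samples (log2 fold change 0.55, standard error 0.18, adjusted p = 0.422 in edgeR's quasi-likelihood test). It was 0.30 without LY500307 replicate 2 and 0.46 without vehicle replicate 1, and met the criteria in neither fit. SSB, the La protein that binds the 3′ ends of new RNA polymerase III transcripts, was the most highly counted of the 12. It had 449 and 413 CPM with vehicle and 360.5 and 278 CPM with LY500307 (log2 fold change -0.43, standard error 0.14, adjusted p = 0.422 in the same test), within the limit of 0.5. Leaving out LY500307 replicate 2 gave -0.26, and leaving out replicate 1 gave -0.63. The 3 subunits of mitochondrial RNase P, which has no RNA, had log2 fold changes of -0.11 (TRMT10C), 0.17 (HSD17B10) and -0.06 (PRORP), and none passed the test.

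MALAT1 and NEAT1, nuclear RNAs whose 3′ ends RNase P forms, were lower in both LY500307 samples than in both vehicle samples. So were 24.4% of all genes tested. MALAT1 had 857 and 905 CPM with vehicle and 734 and 564 CPM with LY500307 (log2 fold change -0.44, standard error 0.14, adjusted p = 0.422 in edgeR's quasi-likelihood test). NEAT1 had 344 and 365 CPM with vehicle and 307 and 265 CPM with LY500307 (log2 fold change -0.31, standard error 0.11, adjusted p = 0.422 in the same test). Both had an unadjusted p below 0.05, as did 11.6% of all genes tested, and neither reached an absolute log2 fold change of 0.5. Without LY500307 replicate 2 the values were -0.26 (MALAT1) and -0.21 (NEAT1). Without LY500307 replicate 1 they were -0.64 and -0.42. With vehicle replicate 1 left out, MALAT1 was at -0.48 and NEAT1 at -0.35, and with vehicle replicate 2 left out at -0.40 and -0.27.

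For the particles of the 7S RNAs, the proteins could be read although the RNAs could not. RN7SK lies on chromosome 6 of GRCh37 from 52860419 to 52860746, and 64 of its 279 windows of 50 bases (22.9%) occurred once in the genome. None of the 7 genes of the 7SK particle and P-TEFb met the study's criteria in edgeR or DESeq2, and their median log2 fold change was -0.04. In edgeR 2 of them had an unadjusted p below 0.05, against 11.6% of all genes tested. In DESeq2 3 did, but its share over all genes is not given here. CDK9, the kinase of P-TEFb, had 68.8 and 70.9 CPM with vehicle and 82.2 and 87.2 CPM with LY500307 (log2 fold change 0.28, standard error 0.10). CCNT2, a cyclin partner of CDK9, had 139 and 144 CPM with vehicle and 121 and 103 CPM with LY500307 (log2 fold change -0.34, standard error 0.11). For both, the adjusted p was 0.422 in edgeR's quasi-likelihood test, and LY500307 replicate 2 left out gave 0.24 (CDK9) and -0.23 (CCNT2). Neither had an unadjusted p below 0.05 once a vehicle sample was left out. HEXIM1, which inhibits P-TEFb when bound to 7SK, was the most highly counted, at -0.04 (standard error 0.12).

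Likewise 0 of 8 genes of the signal recognition particle and its receptor met the criteria in either tool, with 1 at an unadjusted p below 0.05 in edgeR and 0 in DESeq2. That gene was SRPRB, a receptor subunit (log2 fold change 0.29, standard error 0.11, and 0.22 without LY500307 replicate 2). SRP9, the most highly counted, had a log2 fold change of 0.02, and the median of the 8 was -0.07.

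RNA polymerase III transcribes RMRP, RPPH1 and RN7SK. Of 30 genes for this polymerase and its factors at any of its genes, 0 met the study's criteria in either tool. An unadjusted p below 0.05 was found for 2 in edgeR and 1 in DESeq2. They were BDP1, a subunit of the initiation factor TFIIIB (log2 fold change -0.43, standard error 0.17), and SNAPC2, a subunit of the complex that binds upstream promoters of this kind (0.36, standard error 0.15). BDP1 had 255 and 255 CPM with vehicle, 224 CPM in LY500307 replicate 1 and 155 CPM in LY500307 replicate 2. With LY500307 replicate 2 left out its value was -0.19, and with LY500307 replicate 1 left out it was -0.72. The value of SNAPC2 was 0.23 without LY500307 replicate 2. Of the 30, 15 had a positive log2 fold change, and the median was -0.01. GTF3C1, the most highly counted, was at 0.00. Across these 5 lists, 2 of the 61 genes tested met the criteria, where 4.62% of all genes did. Without LY500307 replicate 1, that number and the number over all genes both rose. Without LY500307 replicate 2 both fell.

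**Figure D4:**
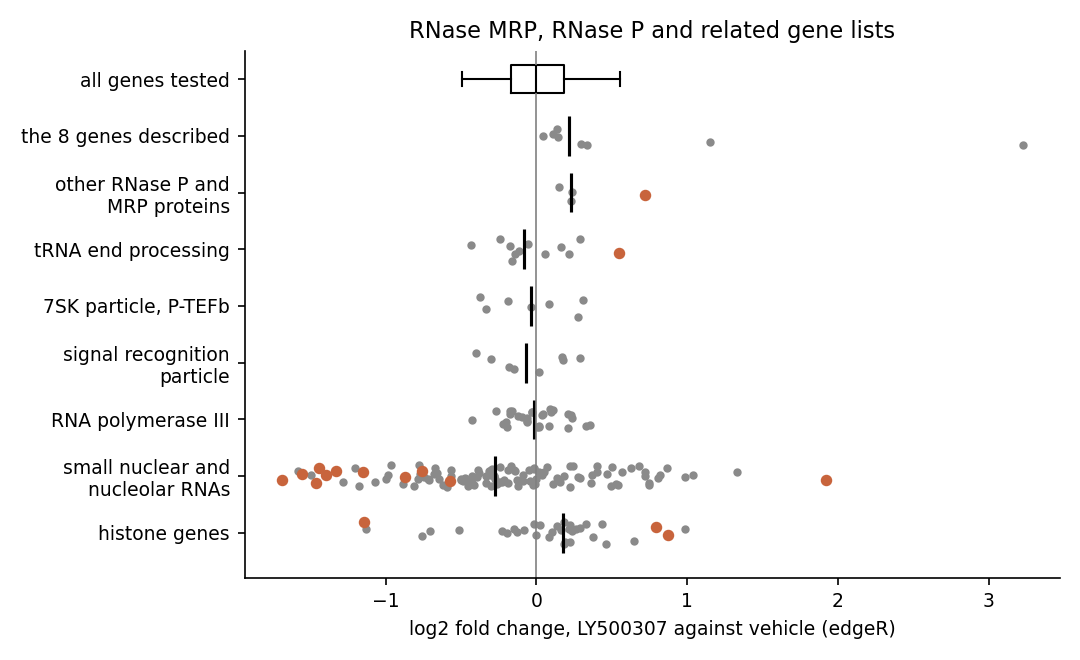
Fitted log2 fold change of LY500307 against vehicle for the genes of each list that passed the filter, each point a gene, with the list's median as a vertical line. The box for all genes tested spans the quartiles and its whiskers the 5th to 95th percentile. Orange points met the study's criteria, and the 8 genes described are all grey, since the comparison chose them. RMRP lies at 3.23, beyond every point of the other lists.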

How the data were processed

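The authors sequenced RNA from 2 vehicle and 2 LY500307 samples, aligned the 50-base reads to hg19 with TopHat2 2.0.8b and deposited raw counts per gene symbol from HTSeq, without normalization (per the labels). The counting mode and strand setting of HTSeq are not given in the sources used here, so antisense overlaps are uncertain. HTSeq's 5 tally lines, 50.04% to 54.4% of the tallied reads, were left out of library sizes and tests. Counts were normalized with TMM and tested in edgeR 4.0.16 (R 4.3.3) by the quasi-likelihood test after filterByExpr, with Benjamini-Hochberg adjustment over all genes tested. The standard error is the absolute log2 fold change divided by the square root of F. The study's criteria are an unadjusted p below 0.05 with a log2 fold change beyond 0.5 in either direction.

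The genes and lists were chosen with earlier results of these data known. Named genes are the 8 with counts, both neighbours, MALAT1, NEAT1, ESR2, the markers, the 5 genes nearest RMRP in log2 CPM (prior count 2), the most highly counted gene of each list, and those that met the criteria (the 3 with the smallest p where more than 5 did). Other genes were named after their values were seen.

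Alternatives were DESeq2 1.42.0, its size factors, library totals, no filter, a table without small RNA genes, the replicate number as a block, unmodelled ratios, another denominator and leaving out each sample. Same-numbered samples deviated from their group means with a correlation of -0.07 across genes and were not taken as pairs. The procedure was tested on simulated data. Positions and sequences came from GRCh37 with GENCODE v44lift37.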

Additional observations from a re-analysis of the deposited data

How the results depend on the processing

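With 2 samples per group and 2 to 89 reads per sample, the levels of RMRP and RPPH1 rested on few reads. Among DESeq2, its size factors, library totals, no filter, removal of small RNA genes and the replicate block, the number of genes that met the study's criteria ranged from 566 to 816 around 669, and 2 genes of the 5 lists met them in each. The log2 fold change of RMRP ranged from 3.23 to 3.27 under these settings. With the replicate number as a block, which did not pair the samples, it was 3.24, that of RPPH1 1.03, and 717 genes met the criteria (1 with an adjusted p below 0.05). Library totals made 484 of 694 genes higher, against 400 of 669, and shifted the median of all genes by 0.04.

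With each sample left out, the number of genes that met the criteria ranged from 352 to 1987, the number on the 5 lists from 0 to 9, and the number of the 8 genes with an absolute log2 fold change above 0.5 from 1 to 2, the lowest each time without LY500307 replicate 2. The lone sample of a group was there assumed to vary like the other group. The log2 ratio of the mean RMRP shares was 3.31, or 3.38 per tallied read, and ranged from 2.55 without vehicle replicate 2 to 5.06 without vehicle replicate 1. What causes this spread was not tested. Without LY500307 replicate 1, 5002 genes had an adjusted p below 0.05, and 590 had one without LY500307 replicate 2.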

Other observations

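Among the short RNAs that met the study's criteria, SNORD57 had the smallest p, with 89 and 75 reads with vehicle and 38 and 31 with LY500307 (log2 fold change -1.44, standard error 0.31, adjusted p = 0.422 in edgeR's quasi-likelihood test). SNORD29 had 139 and 156 reads with vehicle and 105 and 81 with LY500307 (log2 fold change -0.87, standard error 0.24). Both met the criteria with each sample left out in turn. SNORD57 and SNORD29 are box C/D small nucleolar RNAs, which guide methylation of ribosomal RNA and lie in introns of host genes. SNORD116-22 was the gene of this list that was higher, with 8 and 2 reads with vehicle and 20 and 24 with LY500307 (log2 fold change 1.92, standard error 0.70), and met the criteria in 1 of the 4 fits with a sample left out. No vehicle sample of SNORD116-22 reached the filter minimum of 0.325 unscaled CPM, so it was tested only because its LY500307 samples were high. SNORD47, the most highly counted of the list, had 257 and 174 reads with vehicle and 187 and 229 with LY500307, and the groups overlapped.

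Of 34 replication-dependent histone genes tested, 2 were higher and 1 was lower by the study's criteria, against 2.76% and 1.86% of all genes tested, with a median log2 fold change of 0.17. DESeq2 gave 3 higher and 0 lower among 60 histone genes, where 566 of its 18407 genes met the criteria, 364 of them higher. Library totals gave 2 higher and 0 lower among 34. Leaving out LY500307 replicate 1 gave a median of 0.07 and leaving out replicate 2 one of 0.08. Without vehicle replicate 1 it was 0.22, and without vehicle replicate 2 it was 0.095. The filter was applied anew in each of these fits, so the medians cover 37 to 40 genes. HIST1H2AE had 66 and 82 reads with vehicle and 155 and 140 with LY500307 (log2 fold change 0.79, standard error 0.25). HIST1H3H had 45 and 50 reads with vehicle and 83 and 116 with LY500307 (0.87, standard error 0.32, and 0.55 without LY500307 replicate 2, where it did not meet the criteria), and HIST1H1D had 37 and 39 reads with vehicle and 13 and 26 with LY500307 (-1.15, standard error 0.49, and -0.69 without LY500307 replicate 1, where it did not meet them). No histone gene described met the criteria without vehicle replicate 1. None had an adjusted p below 0.05 in edgeR or DESeq2. HIST1H2BK, the most highly counted, had a log2 fold change of 0.13. Histone genes have near-identical copies, so these counts are uncertain.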
